A study of Mus musculus with 27 samples.

Results

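The genes described here are 8 genes for adipokines and other proteins that fat cells secrete: Adipoq, Cfd, Retn, Lep, Agt, Angptl4, Nampt and Lcn2. They were chosen by symbol from the 24825 genes of the expression files, and all 8 were found. Adipokines are proteins that adipocytes release into the blood or the surrounding tissue, and they act on insulin sensitivity, appetite, blood pressure, lipid uptake and immunity. Several of them, adiponectin above all, are made almost only by mature adipocytes and are direct targets of PPARγ, the nuclear receptor that drives adipocyte differentiation. Others, such as Nampt and Angptl4, are made by many cell types.

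RNA-seq of polyadenylated RNA was carried out in C2C12 cells, a mouse myoblast line that forms myotubes when left to differentiate. NFIA is a transcription factor of the nuclear factor I family that promotes brown adipocyte differentiation and represses the muscle program, and the experiment asked how far a mutant lacking its C-terminal pro#3 domain can do the same. There were 27 libraries, 3 in each of 9 groups, and the depth ranged from 9567769 to 27230965 fragments assigned to genes (median 17707223).

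The cells were of 3 kinds: C2C12 myoblasts labelled as control, and myoblasts carrying NFIA, either full-length or as the Δpro#3 mutant, from a retroviral vector. No source used here gives the vector of the control cells or says whether the cells were pools or single clones. Each kind of cell was sampled at day 0 and at day 7 of differentiation, with a further day 7 group that had 10 µM forskolin, which raises cyclic AMP, for 4 h. All day 7 groups, controls included, had received the same adipogenic cocktail for 48 h (isobutylmethylxanthine, indomethacin, dexamethasone, insulin, T3 and the PPARγ agonist rosiglitazone) and then insulin, T3 and rosiglitazone. The labels do not say whether the 3 libraries of a group came from separate cultures, so the p-values measure only the spread between these libraries.

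Nfia was at 225 to 250.2 FPKM (fragments per kilobase of transcript, scaled to library depth) in the NFIA libraries at day 0 and at 397 to 423 FPKM in the Δpro#3 mutant libraries, against 0.175 to 7.35 FPKM in the control libraries. The highest control value, 7.35 FPKM, was that of control replicate 2 at day 0, and the other 2 were at 0.879 and 0.175 FPKM. At day 7 Nfia was at 457 to 528 FPKM with full-length NFIA, 374 to 480.5 FPKM with the mutant and at most 0.253 FPKM in control cells. After forskolin it was at 497 to 594 FPKM with full-length NFIA and at 262 to 344 FPKM with the mutant, below each mutant library at day 7, and the part of this in the forskolin results was not tested. Another library stood apart in adipocyte genes. The summed level of 10 adipocyte markers was 2111 FPKM in Δpro#3 mutant replicate 1 at day 7, against 700.5 and 805 FPKM in the other 2 mutant libraries, and 999.9 against 613 and 646 FPKM after forskolin. Member results whose call rests on these libraries are given with and without them below.

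The region just before the start site of a gene is where the general transcription machinery assembles, and the upstream sequences of 3 members with different day 7 patterns and of the member with the most NFI motifs are shown before the values. They were taken from RefSeq on the build GRCm38.p6, as the 250 bases before the start site on the strand of the gene. Of the 8 members, 7 had such a window, and Angptl4 had none. Capitals mark matches, on either strand, to the NFI single site TTGGC, the C/EBP motif TTGCNNAA or the TATA motif TATAAA. The Adipoq window lies at chr16:23146286-23146535 on the + strand, that of Cfd at chr10:79890603-79890852 on the + strand, that of Agt at chr8:124569707-124569956 on the - strand and that of Lcn2 at chr2:32387740-32387989 on the - strand.
Adipoq: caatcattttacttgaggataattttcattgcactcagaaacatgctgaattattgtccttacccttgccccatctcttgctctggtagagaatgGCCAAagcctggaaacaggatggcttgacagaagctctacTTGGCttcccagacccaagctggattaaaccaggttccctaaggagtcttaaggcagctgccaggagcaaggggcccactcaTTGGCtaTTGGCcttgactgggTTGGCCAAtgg
Cfd: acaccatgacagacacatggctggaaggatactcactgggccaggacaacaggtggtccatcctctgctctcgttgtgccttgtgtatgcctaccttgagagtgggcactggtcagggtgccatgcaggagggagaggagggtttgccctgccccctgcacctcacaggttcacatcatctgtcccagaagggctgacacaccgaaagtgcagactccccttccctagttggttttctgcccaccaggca
Agt: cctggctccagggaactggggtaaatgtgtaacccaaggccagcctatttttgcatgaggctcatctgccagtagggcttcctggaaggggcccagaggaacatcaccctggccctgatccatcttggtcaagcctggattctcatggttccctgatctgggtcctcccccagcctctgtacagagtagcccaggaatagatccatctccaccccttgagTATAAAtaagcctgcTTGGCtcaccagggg
Lcn2: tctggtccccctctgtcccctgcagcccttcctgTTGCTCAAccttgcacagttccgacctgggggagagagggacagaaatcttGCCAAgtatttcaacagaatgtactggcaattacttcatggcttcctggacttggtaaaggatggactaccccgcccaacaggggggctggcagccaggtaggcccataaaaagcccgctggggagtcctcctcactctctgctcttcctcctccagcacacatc

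Adipoq held 6 NFI single sites within its 250 bases. Their first bases lay at -155, -115, -33, -26, -11 and -8 from the start site, and the last 2 overlap as a run that reads the same on both strands. Only 4 of all 32851 RefSeq windows of that length held 6 or more, whereas 41.5% held at least 1. Retn, Lep, Agt, Nampt and Lcn2 held 1 NFI single site each, and Cfd held none.

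The other motifs searched were as scattered among the members. A C/EBP motif was found in Lcn2 at -216 and in Lep at -55, against 9.6% of all windows. Retn held 1 match to the NF-kB motif (4.1% of all windows). Nampt held 1 match to the cyclic AMP response element core TGACG (17.8%). The TATA motif of Agt lies at -30, and 12.4% of all windows held one. No member window held the full cyclic AMP response element TGACGTCA (1.5% of all windows), the paired NFI site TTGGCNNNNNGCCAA (0.037%) or the PPAR direct repeat AGGNCANAGGNCA (0.338%). These are matches of letters, not sites of binding, and no binding was measured here.

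**Figure D1:**
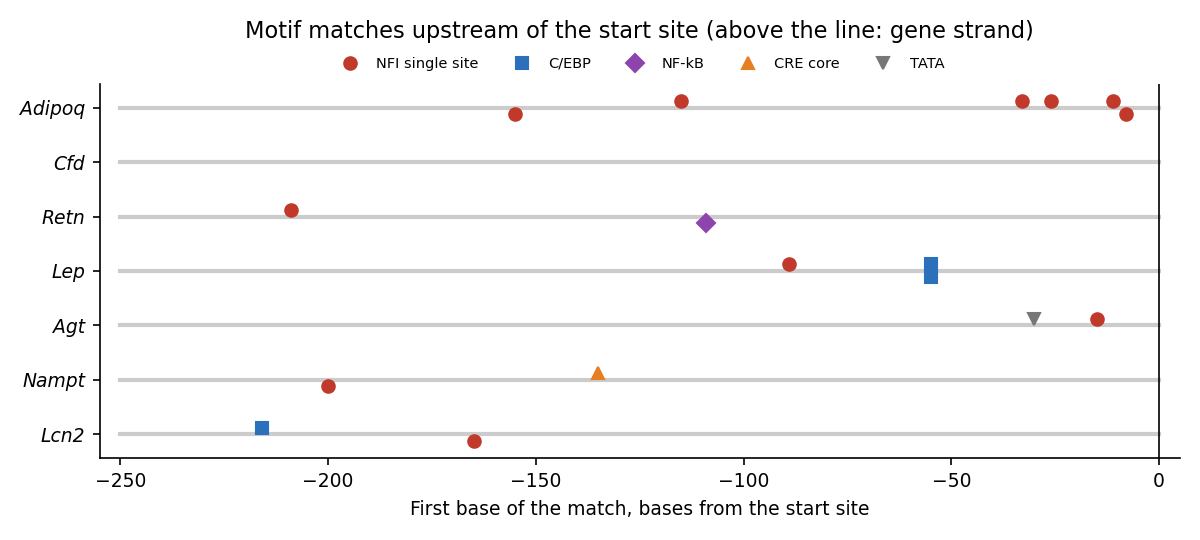
Motif matches in the 250 bases before the start site of the 7 members with a RefSeq window. The x axis gives the first base of each match in bases from the start site, each line is a gene, and points above or below a line are matches on the strand of the gene or on the other strand. The 6 NFI single sites of Adipoq spread from -155 to -8, and the line of Cfd carries no match.

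At day 7, the 7 members with measurable RNA were higher in NFIA-expressing than in control cells. Summed over the 8 members, the level was 1297 to 1394 FPKM in the NFIA libraries, 108 to 223 FPKM in the Δpro#3 mutant libraries and 41.9 to 47.4 FPKM in the control libraries, and these ranges did not overlap. Tests were by limma on log2(FPKM + 1), and a call needed both an adjusted p under 0.05 and over 3-fold. Full-length NFIA raised 7 of the 7 members tested over control, where 4.87% of the 12324 genes tested were called higher. Cfd and Lcn2 had control means under 0.5 FPKM and entered the test only through the libraries in which they were high. The median of the 7 log2 differences was 5.82, against -0.08 over all genes.

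The Δpro#3 mutant raised 5 of the 7 members over control, against 0.933% of all genes tested, and all 7 were lower in mutant than in NFIA-expressing cells, against 3.7% of all genes called lower. Without the mutant replicate 1 that stood apart, 2 of the 7 (Agt and Angptl4) passed both thresholds over control. In that fit 159 of 12319 genes were called in either direction. Adipoq, Cfd and Retn then kept an adjusted p under 0.05 by limma but were under 3-fold on the log2(FPKM + 1) scale. Mutant replicates 2 and 3 averaged 2.07 FPKM for Cfd and 2.68 FPKM for Retn, against control means of 0.214 and 0.648 FPKM. The median of the 7 differences was 1.86 for the mutant against control, or 1.16 without mutant replicate 1, and -3.96 for the mutant against full-length NFIA. In these bulk libraries, fewer adipocyte-like cells and less RNA per cell cannot be told apart. The summed level of 12 muscle markers at day 7 moved the other way with full-length NFIA. It was 2103 to 2938 FPKM in the NFIA, 12598 to 14643 FPKM in the control and 13791 to 14667 FPKM in the mutant libraries. Per gene, the median difference between mutant and control without mutant replicate 1 was -0.35, with 1 of 12 called lower. At day 0 the sum was 412 to 420 FPKM with the mutant and 1572 to 1672 FPKM in control cells. The part of the muscle genes in the adipokine results was not tested.

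**Figure D2:**
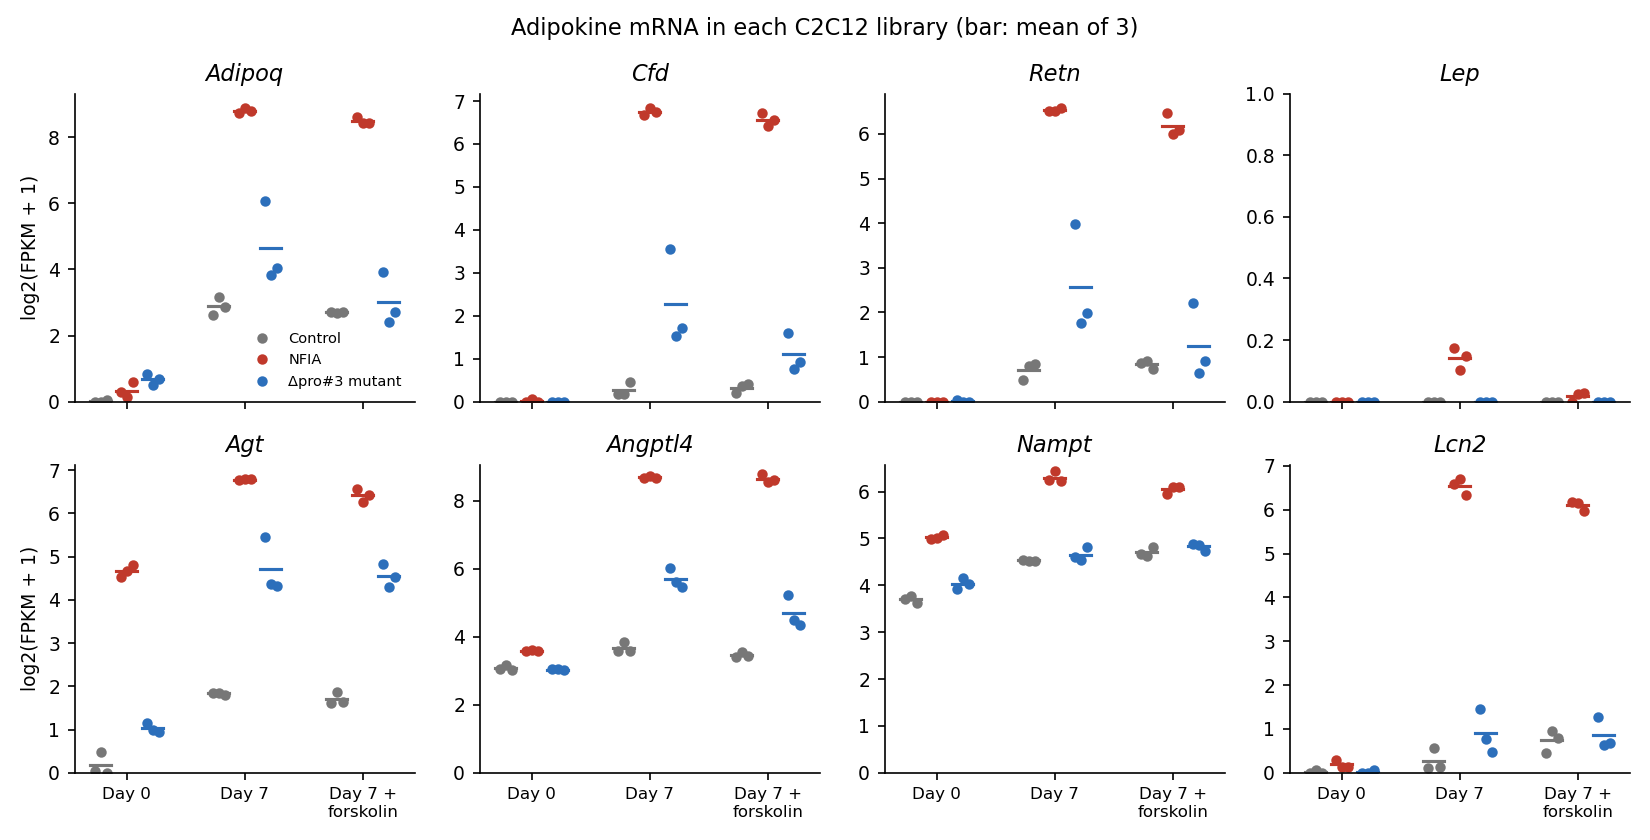
Level of the 8 genes in each of the 27 libraries, as log2(FPKM + 1) on the y axis, by time point on the x axis. Each point is a library, coloured by control, NFIA or Δpro#3 mutant, and each bar is the mean of 3. At day 7 the NFIA libraries sit above all control and mutant libraries for every gene, with those of Lep close to 0.

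Adipoq encodes adiponectin, an insulin-sensitizing hormone made almost only by adipocytes. The 3 control libraries at day 7 were at 5.17, 8.05 and 6.23 FPKM, the NFIA libraries at 423, 467 and 443 FPKM, and the Δpro#3 mutant libraries at 65.6, 13.1 and 15.4 FPKM. The 3 groups did not overlap, and mutant replicate 1 was 4.59 times the mean of the other 2 mutant libraries. On the log2(FPKM + 1) scale, Adipoq rose by 5.91 ± 0.47 (SE) with full-length NFIA over control (limma, adjusted p = 1.22e-06). The difference between the mutant and control was 1.75 ± 0.47 (limma, adjusted p = 0.0109), and without mutant replicate 1 it was 1.04, which is under 3-fold. The SE is shared by the 9 libraries of the fit. On this scale the mutant libraries were at 6.06, 3.82 and 4.04, more spread than the control libraries at 2.62, 3.18 and 2.85. Over the alternatives the adjusted p by limma reached 0.0399. The SEs of Cfd and Retn below are shared in the same way.

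Adipoq was already detectable before induction in cells carrying either construct. At day 0 the control libraries held 0, 0 and 1 fragments, the NFIA libraries 7, 3 and 7, and the mutant libraries 21, 13 and 19. The mutant group was thus the highest of the 3 at day 0, at 0.601 ± 0.174 FPKM (SD, n = 3) against 0.273 ± 0.208 FPKM with full-length NFIA, although single libraries of these groups overlapped. Adipoq was under the level needed for the test at this time point. The pooled fragments gave a mutant-to-NFIA ratio of 2.68 (95% interval 1.53 to 4.93, counting error only). Among all genes with a mean of 1 FPKM or more, those whose log2(FPKM + 1) followed Adipoq most closely over the 27 libraries, which share their groups, were Cidec (Pearson r = 0.996), which encodes a lipid droplet protein, Pnpla2 (0.990), which encodes adipose triglyceride lipase, and Slc36a2 (0.987).

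Cfd encodes adipsin, the serine protease known as complement factor D. At day 7 it was represented by 2, 2 and 4 fragments in the control libraries (0.142, 0.129 and 0.370 FPKM), while the NFIA libraries were at 101, 113 and 107 FPKM. The Δpro#3 mutant libraries were at 10.8, 1.88 and 2.27 FPKM, between the 2 other groups and without overlap with either. Cfd rose by 6.48 ± 0.42 with full-length NFIA (limma, adjusted p = 2.89e-07), which lies within its SE of the difference of Lcn2 given below. The difference for the mutant was 1.99 ± 0.42 (limma, adjusted p = 0.00328), and 1.34 without mutant replicate 1. The pooled fragment ratio of NFIA to control was 548 (95% interval 278 to 1271, counting error only). The genes that followed Cfd most closely were Agpat2 (r = 0.993), which encodes an enzyme of triglyceride synthesis, Acer2 (0.992) and Aldh3b2 (0.991).

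Retn encodes resistin, a cysteine-rich adipocyte hormone of rodents that lowers insulin action. The control libraries at day 7 were at 0.408, 0.739 and 0.796 FPKM, the NFIA libraries at 90.2, 90.4 and 94.4 FPKM, and the Δpro#3 mutant libraries at 14.7, 2.41 and 2.94 FPKM. The groups again did not overlap, and mutant replicate 1 stood 5.50 times above the mean of the other 2. Retn rose by 5.82 ± 0.46 with full-length NFIA (limma, adjusted p = 1.14e-06). The difference for the mutant was 1.86 ± 0.46 (limma, adjusted p = 0.00708), and 1.16 without mutant replicate 1. The 3 genes most like Retn were Slc36a2 (r = 0.995), Adig (0.991), which encodes the fat cell protein adipogenin, and Plin1 (0.989), which encodes the main coat protein of lipid droplets.

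Lep encodes leptin, the satiety hormone whose amount in blood follows fat mass. It was the member that stayed close to absent. Fragments of Lep were found in the NFIA libraries at day 7 (4, 5 and 4) and after forskolin (0, 1 and 1), and in none of the 21 other libraries. The level of 0.103 ± 0.0271 FPKM (SD, n = 3) in NFIA-expressing cells at day 7 lay below the level needed for the test. Against the limit that a count of 0 over the control group allows (3 fragments), it was at least 4.56-fold higher than in control cells. The ratio of day 7 to forskolin-treated NFIA libraries was 7.41 (95% interval 1.68 to 67.6, counting error only). With so few fragments, the likeness to Uhrf1bp1 (r = 0.925), Fam107a (0.919) and Tha1 (0.907) rests on 5 libraries.

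Agt encodes angiotensinogen, the precursor of the angiotensins that control blood pressure, made in liver and fat. At day 7 the control libraries were at 2.61, 2.58 and 2.5 FPKM, the NFIA libraries at 108, 109.7 and 109 FPKM and the Δpro#3 mutant libraries at 42.6, 19.5 and 19.1 FPKM. The mutant libraries were clear of both other groups. Agt rose by 4.95 ± 0.24 with full-length NFIA (limma, adjusted p = 3.02e-08) and by 2.88 ± 0.24 with the mutant (limma, adjusted p = 1.09e-05). Without mutant replicate 1 the second difference was 2.51 and still passed. Rasl12 (r = 0.961), Wfdc21 (0.950) and Plin4 (0.949), the last encoding another lipid droplet protein, followed Agt most closely.

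Agt was also the only member called between groups before induction. At day 0 the NFIA libraries were at 22.1, 24.5 and 27 FPKM, the Δpro#3 mutant libraries at 1.22, 0.973 and 0.923 FPKM, and the control libraries at 0.0229, 0.399 and 0 FPKM. Within the control group, 20 of the 21 fragments of Agt came from replicate 2, the library in which Nfia was at 7.35 FPKM. Agt rose by 4.50 ± 0.12 with full-length NFIA at day 0 (limma, adjusted p = 1.13e-10). The difference between mutant and control was 0.85 ± 0.12 (limma, adjusted p = 0.000144), under 3-fold on this scale. Without control replicate 2 the differences from control were 4.66 with full-length NFIA and 1.01 with the mutant. The mutant difference was called, at 2.63, with a pseudocount of 0.1 FPKM, and at 4.25 by limma-voom on fragments. The control level was 1.63% of the NFIA mean in replicate 2, close to 0 in the other 2 libraries, and the corresponding share of Nfia in replicate 2 was 3.04%. Fabp4 was at 0.371, 0.270 and 0.0563 FPKM in control replicates 1, 2 and 3, and Adipoq was at 0 in replicate 2. The source of the Agt fragments in replicate 2 was not tested.

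Angptl4 encodes a secreted inhibitor of lipoprotein lipase that responds to fasting and to PPAR ligands. At day 7 the control libraries were at 11.1, 13.5 and 11 FPKM, the NFIA libraries at 405, 425 and 405 FPKM and the Δpro#3 mutant libraries at 63.9, 48.0 and 43.1 FPKM. The 3 groups were separate, and mutant replicate 1 was 1.40 times the mean of the other 2 mutant libraries. Angptl4 rose by 5.01 ± 0.13 with full-length NFIA (limma, adjusted p = 4.08e-10) and by 2.02 ± 0.13 with the mutant (limma, adjusted p = 2.19e-06), or 1.86 without mutant replicate 1. At day 0 its values were 7.24, 8.01 and 7.13 FPKM in control, 10.9, 11.2 and 11 FPKM with full-length NFIA and 7.22, 7.22 and 7.07 FPKM with the mutant. The difference of 0.51 ± 0.04 between NFIA and control at day 0 had an adjusted p of 1.13e-06 by limma but was under 3-fold. Plin1 (r = 0.988), Lrg1 (0.987) and Mfsd7a (0.985) were most like it.

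Nampt encodes nicotinamide phosphoribosyltransferase, the enzyme that limits NAD salvage and that is also found outside cells as visfatin. It was expressed in every group, and its differences at day 7 were the smallest among the 7 members tested. At day 7 the control libraries were at 22.4, 22 and 22 FPKM, the NFIA libraries at 74.8, 85.7 and 73.4 FPKM, and the Δpro#3 mutant libraries at 23.4, 22.3 and 27.1 FPKM. The mutant and control libraries overlapped. Nampt rose by 1.77 ± 0.08 with full-length NFIA (limma, adjusted p = 1.75e-08), whereas the difference for the mutant was 0.12 ± 0.08 (limma, adjusted p = 0.215). The mutant was lower than full-length NFIA by a difference of -1.64 ± 0.08 (limma, adjusted p = 4.21e-08), which was -1.58 and just under 3-fold without NFIA replicate 2. At day 0 the values were 12, 12.6 and 11.4 FPKM in control, 30.7, 31.3 and 32.5 FPKM with full-length NFIA and 14.2, 16.9 and 15.3 FPKM with the mutant. The difference of 1.32 ± 0.06 between NFIA and control at day 0 (limma, adjusted p = 4.45e-09) was under 3-fold. The genes most like Nampt were 2610528A11Rik (r = 0.977), Slc25a5 (0.970), which encodes a mitochondrial ADP/ATP carrier, and Dhrs9 (0.967).

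Lcn2 encodes lipocalin 2, a protein that binds bacterial iron carriers and that adipocytes, neutrophils and inflamed epithelia secrete. At day 7 it was represented by 1, 7 and 1 fragments in the control libraries (0.0770, 0.488 and 0.10 FPKM), while the NFIA libraries were at 94.6, 103 and 80.3 FPKM. The Δpro#3 mutant libraries were at 1.76, 0.695 and 0.397 FPKM and overlapped with control. Lcn2 rose by 6.27 ± 0.23 with full-length NFIA (limma, adjusted p = 3.98e-09). The difference for the mutant was 0.63 ± 0.23 (limma, adjusted p = 0.0411), under 3-fold. With a pseudocount of 0.1 FPKM it was called, at 1.71. Slc25a34 (r = 0.995), Cyp2e1 (0.994) and Col15a1 (0.994) followed Lcn2 most closely.

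Lcn2 is also a neutrophil gene, and other markers of that cell type were split. Of 7 neutrophil markers, S100a8 (78.0 FPKM) and Camp (9.64 FPKM) were found in NFIA-expressing cells at day 7, while S100a9 and Ly6g were at 0 there and Mpo, Elane and Ngp were at 0.0178, 0.157 and 0.0530 FPKM. The summed level of the list was 80.9 to 102 FPKM with full-length NFIA, 0.185 to 0.528 FPKM in control cells and 2.34 to 5.65 FPKM with the mutant. Of 10 macrophage markers, 9 were found in the files, and Ptprc, C1qa, C1qb and Tyrobp were at 0 in NFIA-expressing cells at day 7. Their sum was 10.8 to 12.5 FPKM there, made up mostly of Cd68 (10.4 FPKM) with Lyz2 at 1.40 FPKM, against 15.5 to 16.2 FPKM in control cells and 8.11 to 10.2 FPKM with the mutant. Lyz2, a lysozyme gene, was at 0.0663 FPKM in control cells at day 7, and at day 0 it was called higher with full-length NFIA (9.92 FPKM) and with the mutant (4.08 FPKM) than in control cells (0.0855 FPKM). The sum of 6 endothelial markers stayed under 0.73 FPKM in each library at day 7. All 10 adipocyte markers were called higher with full-length NFIA than in control cells at day 7 and 10 of 12 muscle markers lower, where with the mutant 3 adipocyte markers were higher (1 without mutant replicate 1) and 1 muscle marker was lower.

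**Figure D3:**
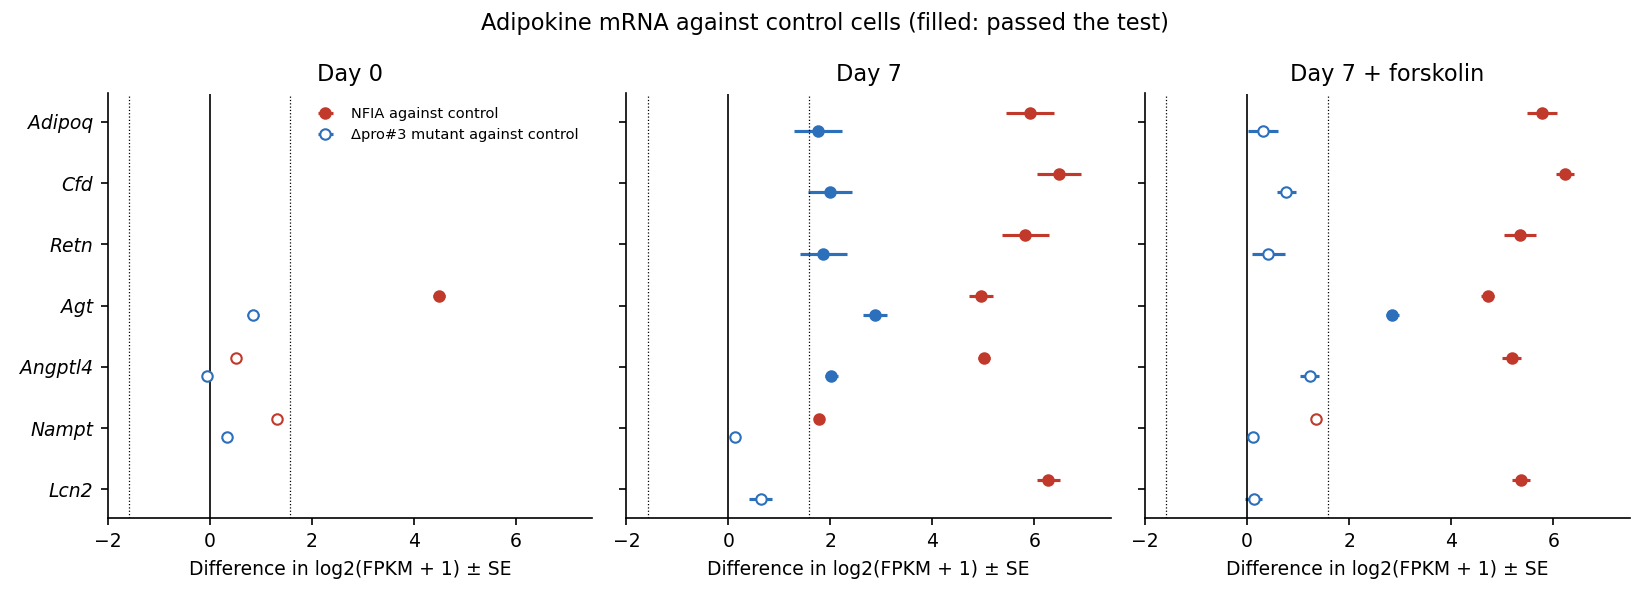
Difference from control cells for each member that could be tested, on the x axis as log2(FPKM + 1) ± SE, in separate panels for day 0, day 7 and day 7 with forskolin. Red is full-length NFIA, blue the Δpro#3 mutant, filled points passed the test and dotted lines mark 3-fold. At day 7 the NFIA points lie between 1.77 and 6.48 and the mutant points between 0.12 and 2.88, with Agt the highest of the mutant points.

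Relative to the mean of NFIA-expressing cells at day 7, the Δpro#3 mutant reached a different share for each member. The mutant mean was 24.8% ± 12.3 (SD, n = 3) for Agt, 12.6% ± 2.65 for Angptl4, 7.30% ± 7.59 for Retn, 7.06% ± 6.67 for Adipoq, 4.66% ± 4.73 for Cfd and 1.03% ± 0.775 for Lcn2. The mean of mutant replicates 2 and 3 alone was 17.7% for Agt, 11.1% for Angptl4, 2.92% for Retn, 3.22% for Adipoq, 1.93% for Cfd and 0.590% for Lcn2. For Nampt the mean of all 3 was 31.1% ± 3.18, but the control cells were already at 28.4% ± 0.325. For the other 6 genes the control shares were 0.200% (Cfd) to 2.88% (Angptl4). Retn, Adipoq and Cfd were measured in the same libraries, so these SDs do not bear on their order within a library. The share of Cfd was the lowest of the 3 in each mutant library. It was 10.1% in replicate 1 (16.1% for Retn, 14.8% for Adipoq) and 1.75% in replicate 2 (2.63% and 2.96%). In replicate 3 it was 2.12% (3.21% and 3.48%). The order of Retn and Adipoq was not the same in all 3 libraries.

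Mutant replicate 1 exceeded the mean of the other 2 mutant libraries by an amount that was also uneven between genes. As a share of the NFIA mean, the excess was 21.4% for Agt, 13.1% for Retn, 11.5% for Adipoq, 8.18% for Cfd, 4.46% for Angptl4 and 1.31% for Lcn2, and for Nampt the library was lower by a difference of -1.64%. For the adipocyte genes Fabp4, Cidec and Plin1 it was 9.58%, 11% and 5.19%, and for Nfia itself 21.1%. The cause of the difference between the mutant libraries was not tested.

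**Figure D4:**
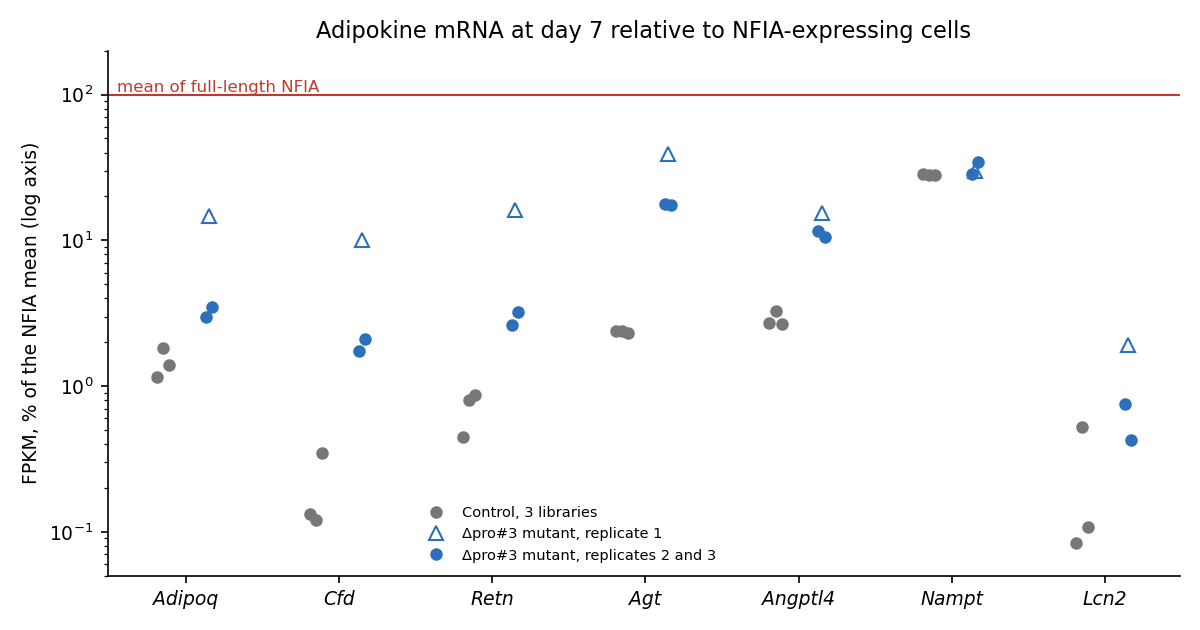
Level of 7 members at day 7 as a percentage of the mean of the NFIA libraries, on a log axis, with 1 point per library. Control libraries are grey, mutant replicates 2 and 3 blue circles and mutant replicate 1 an open triangle, and the red line is 100%. The triangle lies above the circles for each gene except Nampt, and the lowest mutant circle is at 17.6% for Agt and 10.5% for Angptl4.

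From day 0 to day 7, control cells under the adipogenic cocktail raised 2 of the 7 members tested, Adipoq and Agt, where 3.65% of 12408 genes were called higher. Their changes were 2.87 ± 0.38 and 1.66 ± 0.21 on the log2 scale, and that of Agt was 1.58, just under 3-fold, without control replicate 3 at day 0. In control cells Retn was also called, at 2.86, with a pseudocount of 0.1, where 1418 of 12408 genes were called in either direction. Limma-voom on fragments called Retn (5.41), Cfd (3.38) and Lcn2 (2.70) as well, which makes 5 of 7, and 1566 of 12408 genes. Against the limit that 3 fragments over the group allow at day 0, Retn was at least 21.1-fold and Cfd at least 4.69-fold higher in control cells at day 7. NFIA-expressing cells raised 6 of 7, all but Nampt, against 5.38% of genes, and mutant cells raised 5 of 7, all but Nampt and Lcn2, against 3.91%. The change of Lcn2 in mutant cells was 0.88 here, but it was called at 2.99 with a pseudocount of 0.1 and at 4.43 by limma-voom on fragments. This makes 6 of 7 in both settings, where 1407 and 1541 of 12408 genes were called in either direction. Adipoq, Cfd, Retn and Lcn2 averaged under 0.5 FPKM over the day 0 libraries and entered this test through the day 7 libraries. Agt was near 0 in control cells at day 0 but passed on its day 0 libraries with full-length NFIA as well. Retn had no fragment in the NFIA libraries at day 0 and 1110, 2394 and 1386 at day 7, which is at least 2437-fold higher against the limit that 3 fragments over the group allow. Cfd had no fragment in the mutant libraries at day 0 and 113, 38 and 37 at day 7, at least 89.1-fold higher by the same measure.

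The rise was larger with full-length NFIA than in control cells for 5 of the 7 members (Adipoq, Cfd, Retn, Angptl4 and Lcn2), against 4.53% of genes called higher by this difference in limma. The difference in rise was 4.50 ± 0.14 for Angptl4 (limma, adjusted p = 1.07e-13), 6.10 ± 0.26 for Lcn2 (limma, adjusted p = 2.66e-12) and 0.45 ± 0.10 for Nampt (limma, adjusted p = 0.000942), the last under 3-fold. For Agt it was 0.45 ± 0.30 (limma, adjusted p = 0.185), and its sign depended on the scale. It was called in the opposite direction at -1.71 with a pseudocount of 0.1 FPKM (limma, adjusted p = 0.0174). By limma-voom on fragments it was also called that way, at -3.41 (adjusted p = 0.0247). For Adipoq the difference was 5.59 ± 0.53 (limma, adjusted p = 7.91e-08), but 2.86 with an adjusted p of 0.396 by limma-voom on fragments, where the control at day 0 was 1 fragment.

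With the mutant, the rise exceeded that of control cells for 4 of the 7 members (Cfd, Retn, Agt and Angptl4), against 1.54% of genes. Angptl4 had the firmest of these differences, at 2.07 ± 0.14 (limma, adjusted p = 7.57e-09), followed by Agt at 2.03 ± 0.29 (limma, adjusted p = 3.45e-05). With a pseudocount of 0.1 the difference for Agt was 0.62 and no longer called (limma, adjusted p = 0.429). Lcn2 was called in that setting, at 1.71 (limma, adjusted p = 0.0397), as were 586 of 12408 genes in either direction. Without mutant replicate 1 at day 7, the differences for Cfd and Retn were 1.34 and 1.15, under 3-fold on the log2(FPKM + 1) scale. Their adjusted p by limma was then 9.08e-08 and 1.13e-06. By limma-voom on fragments 1 of the 7 passed, where 674 of 12408 genes were called in either direction, and Agt was at -1.05.

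At day 0 itself, 3 members (Agt, Angptl4 and Nampt) had enough RNA to be tested. Full-length NFIA raised 1 of the 3 over control, against 2.46% of genes, the mutant 0 of 3, against 0.859%, and 1 of the 3 (Agt) was lower in mutant than in NFIA-expressing cells, against 1.12% of genes called lower. At an unadjusted p under 0.05 by limma, 2 of the 3 differed between the mutant and control, Agt and Nampt (0.33 ± 0.06, adjusted p = 0.000491), as did 65.6% of all genes. Limma-voom on fragments called 1 of them, Agt, and 621 of 12105 genes in either direction. For Angptl4 the difference was -0.05 ± 0.04 (limma, adjusted p = 0.348).

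After 4 h of forskolin, full-length NFIA raised 6 of the 7 members tested over control, all but Nampt, against 4.25% of genes, and 6 of 7 were lower in mutant than in NFIA-expressing cells, against 3.31% of genes called lower. The mutant raised 1 of the 7 over control, Agt, against 0.866% of genes. With a pseudocount of 0.1 or by limma-voom it raised 2 of the 7, where 400 and 465 of 12121 genes were called in either direction. Adipoq and Retn, whose mutant and control libraries did not overlap at day 7, overlapped after forskolin, with differences of 0.31 (limma, adjusted p = 0.415) and 0.42 (limma, adjusted p = 0.309). Without mutant replicate 1 these were -0.15 and -0.061. At day 7 itself 2 of the 7 were called without that replicate, where 159 of 12319 genes were called in either direction. No member had a forskolin response called different between mutant and control cells. Cfd had a control mean of 0.260 FPKM after forskolin, under the 0.5 FPKM of the filter, and entered the test through the other libraries. The difference for Nampt between NFIA and control was 1.34 ± 0.07 (limma, adjusted p = 2.12e-08), under 3-fold. The median log2 difference over all genes between NFIA and control was -0.17 after forskolin, so the differences of the members relative to all genes are larger by that amount.

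The responses to forskolin themselves gave few calls. No member was called lower in either (0.147% of genes in control cells and 0.147% in NFIA-expressing cells), and 1 of 7, Adipoq, was called lower in mutant cells (0.131%). At an unadjusted p under 0.05 by limma, 2 members differed in control cells (Nampt at 0.18 and Lcn2 at 0.47) and 1 in NFIA-expressing cells (Nampt at -0.25), where 32% and 60.1% of all genes did, and limma-voom on fragments called 0 in both. The median response over all genes was -0.15 in NFIA-expressing cells and -0.05 in control cells. The cyclic AMP response was present, as Nr4a1 and Nr4a3, early genes of this pathway, rose by 3.27 ± 0.09 (limma, adjusted p = 7.50e-14) and 4.51 ± 0.10 (limma, adjusted p = 4.17e-15) in NFIA-expressing cells. In control cells Nr4a1 went from 15.5 to 28.2 FPKM and Nr4a3 from 5.15 to 10.9 FPKM, both under 3-fold.

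Adipoq was at 386, 339 and 343 FPKM in NFIA-expressing cells after forskolin and at 14.3, 4.29 and 5.56 FPKM in mutant cells. In mutant cells the libraries with and without forskolin overlapped, since replicate 1 was the highest at both. The response in mutant cells was -1.62 ± 0.43 (limma, adjusted p = 0.00798). Without mutant replicate 1 at day 7 alone it was -0.91 (adjusted p = 0.0278), and without both mutant replicate 1 libraries, a setting added after the data were seen, it was -1.37, both under 3-fold. With only the groups compared in the fit, the adjusted p was 0.0882. The response was also under 3-fold with median-ratio scaling (-1.58) and without mutant replicate 2 (-1.32) or 3 (-1.47) after forskolin. In control cells the response of Adipoq was -0.18 ± 0.43 (limma, adjusted p = 0.829) and in NFIA-expressing cells -0.32 ± 0.43 (limma, adjusted p = 0.552).

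Cfd, Retn and Angptl4 in mutant cells had responses of the same sign as Adipoq but under 3-fold on the log2(FPKM + 1) scale. With a pseudocount of 0.1, Cfd (-1.63) and Retn (-1.85) were called, and Retn was called at -1.78 by limma-voom on fragments. Cfd was at 2.05, 0.709 and 0.897 FPKM after forskolin, a response of -1.16 ± 0.36 (limma, adjusted p = 0.0184). Retn was at 3.63, 0.554 and 0.888 FPKM, a response of -1.32 ± 0.44 (limma, adjusted p = 0.0262). Without mutant replicate 1 at day 7 the response was -0.51 for Cfd (limma, adjusted p = 0.0431) and -0.62 for Retn (limma, adjusted p = 0.144). Angptl4 was at 36.6, 21.5 and 19.3 FPKM, with no overlap with its day 7 libraries, a response of -1.01 ± 0.17 (limma, adjusted p = 0.000284). None of these differed from the response of control cells at an adjusted p under 0.05 in limma, where the differences were -1.22 ± 0.51 (adjusted p = 0.196), -1.44 ± 0.62 (adjusted p = 0.210) and -0.79 ± 0.25 (adjusted p = 0.0772). At an unadjusted p under 0.05, 4 of the 7 members differed in this way (these 3 and Adipoq), as did 19% of all genes. Without mutant replicate 1 at day 7 alone, the differences were -0.57 (adjusted p = 0.250) for Cfd, -0.74 (adjusted p = 0.410) for Retn and -0.63 (adjusted p = 0.186) for Angptl4 by limma. Without both mutant replicate 1 libraries, the same differences were -0.83 (adjusted p = 0.00464) for Cfd, -1.22 (adjusted p = 0.00138) for Retn, -0.91 (adjusted p = 0.000661) for Angptl4 and -1.19 (adjusted p = 0.00124) for Adipoq, still under 3-fold, and 6.07% of all genes had an adjusted p under 0.05 there.

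In NFIA-expressing cells after forskolin, Agt was at 94.2, 76.1 and 84.8 FPKM, below each of its day 7 libraries, and its response was -0.36 ± 0.21 (limma, adjusted p = 0.157). Angptl4 was at 439, 377 and 389 FPKM and overlapped with day 7, with a response of -0.04 ± 0.17 (limma, adjusted p = 0.865). Cfd was at 104, 84.0 and 93.3 FPKM, a response of -0.20 ± 0.36 (limma, adjusted p = 0.666), and Retn at 87.1, 62.9 and 66.9 FPKM, a response of -0.35 ± 0.44 (limma, adjusted p = 0.515). The SEs of Adipoq, Cfd and Retn carry the spread of the mutant libraries, because the 18 libraries share 1 estimate of the variance. Without both mutant replicate 1 libraries, 5 of the 7 responses in NFIA-expressing cells had an adjusted p under 0.05 by limma, as did 57.8% of all genes, and none passed 3-fold.

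Nampt and Lcn2 were the members whose response differed between NFIA-expressing and control cells at an adjusted p under 0.05, both by less than 3-fold. These are 2 of the 7 members, where 30.6% of all genes had an adjusted p under 0.05 for this difference. Nampt was at 61.2, 67.4 and 67.6 FPKM in NFIA-expressing cells after forskolin, below each of its day 7 libraries, and at 24.4, 23.8 and 27.3 FPKM in control cells, above each of theirs. The difference in response was -0.42 ± 0.11 (limma, adjusted p = 0.00702), against a median of -0.10 over all genes. Lcn2 was at 71.4, 70.8 and 62.3 FPKM in NFIA-expressing cells and at 0.374, 0.946 and 0.738 FPKM in control cells after forskolin. In control cells the mean of Lcn2 was 0.222 FPKM (9 fragments in all) before and 0.686 FPKM (30 fragments) after forskolin, a response of 0.47 here, 1.44 with a pseudocount of 0.1 and 1.59 by limma-voom, called by none of the 3. The difference for Lcn2 was -0.90 ± 0.31 (limma, adjusted p = 0.0382), and over the alternatives the adjusted p ranged from 0.00337 to 0.0922, with 0.0787 under median-ratio scaling.

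**Figure D5:**
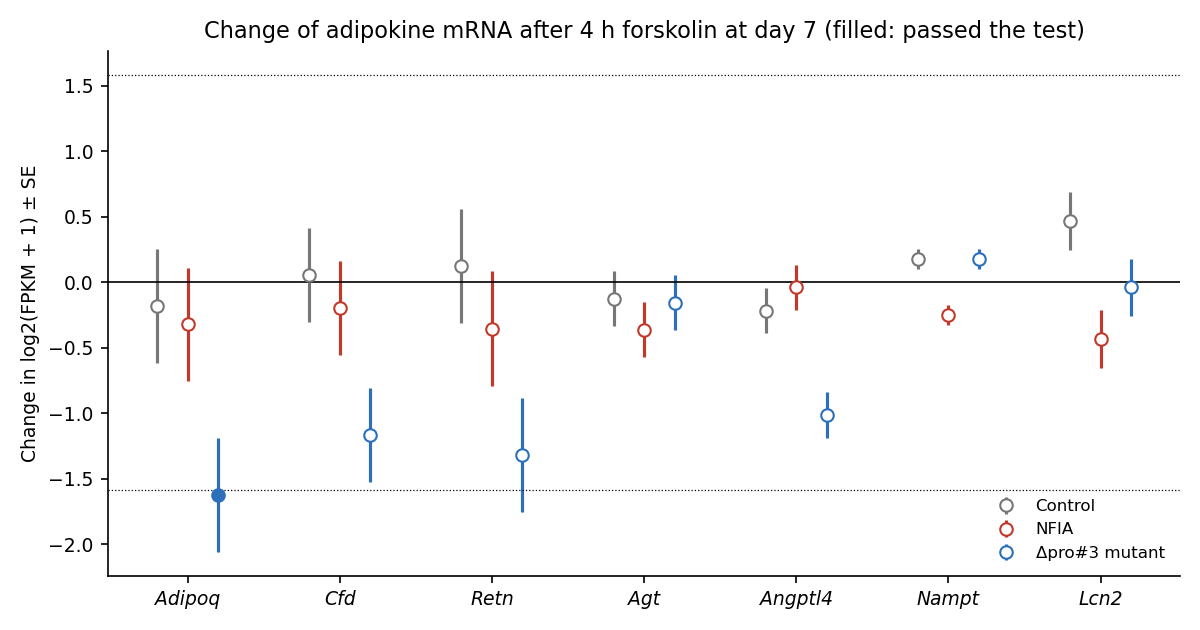
Change after 4 h of forskolin at day 7 in log2(FPKM + 1) ± SE on the y axis for 7 members, in control (grey), NFIA (red) and Δpro#3 mutant cells (blue), each from 3 libraries with and 3 without forskolin. The filled point passed the test, and dotted lines mark 3-fold. Adipoq in mutant cells is the filled point, at -1.62, and the control and NFIA points lie between -0.43 and 0.47.

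Across the 9 groups, 7 members were highest in NFIA-expressing cells at day 7 and next highest in the same cells after forskolin, and Lep, with few fragments, had the same first place. Below these, the orders parted. Agt was at 27.1 ± 13.4 FPKM (SD, n = 3) in mutant cells at day 7, 24.6 ± 2.44 FPKM in NFIA-expressing cells at day 0 and 22.8 ± 4.41 FPKM in mutant cells after forskolin, and these 3 neighbours overlapped. Nampt was higher in NFIA-expressing cells at day 0 (31.5 ± 0.891 FPKM) than in control or mutant cells at day 7. For Adipoq, the mutant at day 7, the mutant after forskolin and the 2 control groups at day 7 each overlapped with their neighbour in the order. Over the 27 libraries, the Pearson r between members on log2(FPKM + 1) was highest for Cfd with Retn (0.995) and lowest, Lep aside, for Agt with Lcn2 (0.770).

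Ranked by mean FPKM among the 24825 genes, Adipoq stood at 138 and Angptl4 at 156 in NFIA-expressing cells at day 7. In control cells at day 7 the same genes stood at 7670 and 5679. Agt, Cfd, Lcn2, Retn and Nampt stood between 707 and 977 in NFIA-expressing cells.

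The pathways around the members were read from lists written for the purpose. Of 30 other proteins that adipose tissue secretes, 24 were tested at day 7 between NFIA and control, and 8 were higher and 1 lower (median 0.75, against -0.08 over all genes). With the mutant, 3 were higher and 2 lower (median 0.10), or 3 higher and 1 lower without mutant replicate 1 (median 0.047). The 2 largest changes were those of Rbp4, which encodes retinol-binding protein 4, and Orm1, which encodes an acute-phase plasma protein. Rbp4 was at 386 ± 28.4 FPKM (SD, n = 3) with full-length NFIA, 0.0490 ± 0.0507 FPKM in control cells and 0.170 ± 0.0902 FPKM with the mutant. The log2 difference of Rbp4 was 8.52 ± 0.08 for full-length NFIA (limma, adjusted p = 1.97e-12) and 0.16 ± 0.08 for the mutant (limma, adjusted p = 0.132). Rbp4 passed the filter on low values only through the NFIA libraries.

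Cfd cleaves factor B in the alternative pathway of complement, and 6 of 9 other genes of this pathway were tested at day 7. The gene called higher both with full-length NFIA and with the mutant was C3, the central complement protein, at 419 ± 18.9 FPKM with full-length NFIA, 1.66 ± 0.132 FPKM in control cells and 107 ± 53.5 FPKM with the mutant, where replicate 1 was at 169 FPKM and the others at 79.7 and 73.2 FPKM. In the same mutant libraries Cfd itself was at 4.99 ± 5.06 FPKM. After forskolin, Cd55, which encodes a membrane inhibitor of complement, rose by 2.47 ± 0.12 in NFIA-expressing cells (limma, adjusted p = 1.01e-10). Its mean also went from 4.78 to 10.0 FPKM in control cells and from 12.8 to 26.8 FPKM in mutant cells.

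Angptl4 acts on lipoprotein lipase, and 10 of 13 other genes that control this enzyme were tested. With full-length NFIA 4 were higher and 0 lower at day 7 (median 1.15), and with the mutant 0 were called in either direction (median 0.08, or 0.023 without mutant replicate 1). The largest changes were those of Angptl8, a relative of Angptl4 that is induced by insulin, at 20.3 ± 1.22 FPKM against 0.139 ± 0.0652 FPKM in control and 0.112 ± 0.104 FPKM in mutant cells, and Pcsk6, a proprotein convertase, at 13.2 ± 0.705 against 0.118 ± 0.0338 FPKM. The log2 differences with full-length NFIA were 4.22 ± 0.09 for Angptl8 (limma, adjusted p = 1.83e-10) and 3.67 ± 0.11 for Pcsk6 (limma, adjusted p = 1.34e-09), and Angptl8 passed the filter only through the NFIA libraries, while Pcsk6 was also under 0.5 FPKM in control cells.

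Adiponectin is assembled into multimers in the endoplasmic reticulum, and 8 of 9 genes of its assembly and traffic were tested. With full-length NFIA 2 were higher (median 0.71) and with the mutant 0 (median 0.01). These were Ero1l, which encodes an oxidase that forms disulfide bonds in adiponectin, at 259 ± 19.5 against 50.2 ± 2.70 FPKM in control cells, and Sort1, a sorting receptor, at 38.9 ± 1.92 against 11.5 ± 0.996 FPKM. Of the 15 receptors and processing enzymes for the members, 9 were tested, 2 were higher with full-length NFIA (median 0.05) and 0 with the mutant (median 0.15). They were Ace, the enzyme that forms angiotensin II, at 20.1 ± 2.43 against 2.35 ± 0.290 FPKM, and the adiponectin receptor Adipor2, at 84.4 ± 1.81 against 24.3 ± 1.07 FPKM.

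Of 11 other genes of NAD metabolism around Nampt, 9 were tested, and 1 was higher with full-length NFIA (median close to 0) and 0 with the mutant (median -0.14). It was Nnmt, which methylates nicotinamide, at 44.9 ± 1.53 against 9.40 ± 1.31 FPKM. Of 18 acute-phase and interferon genes, the company in which Lcn2 is often found, 17 were tested, with 5 higher and 3 lower for full-length NFIA (median -0.09) and 4 higher and 2 lower for the mutant (median 0.89). The 2 largest changes with full-length NFIA were those of C3 and Orm1. Hp, which encodes haptoglobin, was chosen after its values were seen: it was at 151 FPKM with the mutant, above the 41.1 FPKM with full-length NFIA, and the log2 difference between the mutant and NFIA was 1.60 ± 0.45 (limma, adjusted p = 0.0101). Replicate 1 of the mutant was at 286 FPKM for Hp and the others at 87.0 and 81.0 FPKM, and without it the difference was 1.02 and under 3-fold. Lcn2, by contrast, was lower in mutant than in NFIA-expressing cells.

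Of 16 other targets of PPARγ, 14 were tested and 10 were higher with full-length NFIA (median 2.87) and 3 with the mutant (median 0.56), or 1 without mutant replicate 1. Plin1 and Fabp4 changed most, from 2.79 ± 0.175 to 344 ± 22.1 FPKM and from 151 ± 9.62 to 11386 ± 697 FPKM. Of the 10 early cyclic AMP response genes, 0 were higher and 1, Sik1, was lower with full-length NFIA at day 7 (median -0.16), and after forskolin 5 rose in NFIA-expressing cells, 1 in control cells and 1 in mutant cells. Among the secreted proteins, Il6, which encodes interleukin 6, was the one called after forskolin in NFIA-expressing cells, at 3.66 ± 0.273 against 0.113 ± 0.0502 FPKM. Il6 rose in control (2.39 ± 0.16) and mutant cells (2.89 ± 0.16) as well.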

How the data were processed

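Polyadenylated RNA of C2C12 cells was sequenced in 27 libraries, 3 in each of 9 groups. The authors aligned read pairs to mm9 with STAR 2.5.3a, kept uniquely mapped reads, took the gene counts of the matching strand from STAR and deposited FPKM made from them. The gene annotation is not given in the sources used here. Since FPKM steps gave whole fragments for 100% of values (tolerance 0.01), fragments per gene were worked back. They served for depth (9567769 to 27230965 fragments), counting intervals and limma-voom. Intervals (95%) and floors (3 fragments) cover counting error only. Replicate pairs differed by more than sampling noise.

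Differences were tested with limma 3.58.1 (R 4.3.3) on log2(FPKM + 1) with a variance trend, for genes whose FPKM averaged at least 0.5 over the libraries of the fit, with Benjamini-Hochberg adjustment over all those genes. A fold change on this scale understates the change of low genes. Fits held the 9 libraries of a time point, or 18 libraries for the change with forskolin or from day 0 to day 7 and for differences in change. In all 19 comparisons were made. A call needed an adjusted p under 0.05 and over 3-fold. The members and lists were chosen with earlier results of these data known. The genes named are the 8 members, the 2 with the largest change among those called in each list with full-length NFIA at day 7 or with forskolin, and the 3 with the highest Pearson r to each member. Nfia, single markers of cell types and Hp are named outside this rule. For the alternative complement list, 1 gene that this rule names is not reported here, and neither are the counts of that list. The lists were other secreted proteins, receptors, adiponectin assembly, alternative complement, lipoprotein lipase control, NAD metabolism, acute-phase and interferon genes, PPARγ targets, cyclic AMP response, and markers of adipocytes, muscle, macrophages, neutrophils and endothelium. The scripts were tested on simulated data.

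The alternatives were a pseudocount of 0.1, median-ratio scaling, no filter or a minimum of 5 FPKM, no trend, other sets of libraries in the fit, the replicate number as a block, limma-voom on fragments, and leaving out each library. For the lists, mutant replicate 1 at day 7 was also left out, a choice made after the data were seen. Motifs were searched on both strands. The files list 26 symbols that a spreadsheet turned into dates, none of them a member.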

Additional observations from a re-analysis of the deposited data

Results flagged for a closer look

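In 12 cases the change of a member differed between kinds of cells by limma at an adjusted p under 0.05. From day 0 to day 7 these were 6 of 7 members for NFIA against control (71.2% of all genes) and 4 of 7 for the mutant against control (44.7%), and for forskolin 2 of 7 for NFIA against control (30.6%), so their number alone does not set the members apart. From day 0 to day 7, the change in NFIA-expressing cells exceeded that in control cells by 5.59 ± 0.53 for Adipoq, 6.46 ± 0.47 for Cfd, 5.82 ± 0.51 for Retn, 4.50 ± 0.14 for Angptl4, 0.45 ± 0.10 for Nampt and 6.10 ± 0.26 for Lcn2 on the log2(FPKM + 1) scale. All 3 NFIA libraries at day 7 lay above all 3 control libraries for each of these genes. The change in Δpro#3 mutant cells exceeded that in control cells by 1.99 ± 0.47 for Cfd, 1.85 ± 0.51 for Retn, 2.03 ± 0.29 for Agt and 2.07 ± 0.14 for Angptl4. On this log2(FPKM + 1) scale, Cfd and Retn passed 3-fold only with mutant replicate 1 included. Without it they were at 1.34 and 1.15, with an adjusted p of 9.08e-08 and 1.13e-06 by limma. The difference of Agt was 0.62 with a pseudocount of 0.1 and -1.05 by limma-voom.

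After forskolin, the response in NFIA-expressing cells was below that in control cells by a difference of -0.42 ± 0.11 for Nampt (adjusted p = 0.00702) and -0.90 ± 0.31 for Lcn2 (adjusted p = 0.0382), both by limma and both under 3-fold. The control level of Lcn2 behind this difference was under 1 FPKM in each library, and with a pseudocount of 0.1 the difference was -1.88. The adjusted p for Lcn2 was 0.0787 with median-ratio scaling, 0.0732 with no filter on low values, 0.0541 by limma-voom and up to 0.0922 with libraries left out.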

How the results depend on the processing

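The values of the members under settings other than leaving out a library kept direction and side of the thresholds in 1082 of the cases, gained a call in 16, lost it in 7 and changed sign in 12. With libraries left out singly, 1689 were kept, 3 gained, 10 lost and 17 changed sign. The causes were not tested. The number of members called moved as follows, with all genes called in either direction under that setting in brackets. For the mutant against control it was 1 at day 0 with a pseudocount of 0.1 or limma-voom (553 and 621 of 12105). After forskolin it was 2 with either (400 and 465 of 12121). At day 7 it was 2 to 5 with libraries left out (159 of 12319 at 2, without mutant replicate 1). It was 6 there with a pseudocount of 0.1 (417 of 12324). For forskolin in mutant cells it was 3 with a pseudocount of 0.1 (150 of 12245) and 2 with limma-voom (185 of 12245). It was 0 with median-ratio scaling (71 of 12243) and with only the groups compared (70 of 12079). Without both mutant replicate 1 libraries, added after the data were seen, it was 0 (72 of 12250). With libraries left out it was 0 to 2 (70 of 12240 at 0 without mutant replicate 1 at day 7, 85 of 12240 at 2 without replicate 2). From day 0 to day 7 in control cells it was 5 with limma-voom (1566 of 12408) and 3 with a pseudocount of 0.1 (1418). It was 1 to 2 with libraries left out (822 of 12406 at 1, without control replicate 3 at day 0). In mutant cells it was 6 with either scale (1541 and 1407 of 12408). For the difference in this change between mutant and control it was 1 with limma-voom (674 of 12408). It was 2 to 4 with libraries left out (291 of 12408 at 2, without mutant replicate 1 at day 7). With a pseudocount of 0.1 Lcn2 gained the call and Agt lost it (586 of 12408). For the difference in this change between NFIA and control it was 6 with a pseudocount of 0.1 (1443 of 12408). The added call was Agt in the opposite direction. By limma-voom (1549 of 12408) Agt was called in that direction too, and Adipoq was no longer called. For mutant against NFIA at day 7 it was 6 to 7 with libraries left out (744 of 12306 at 6, without NFIA replicate 2). For the difference in forskolin response between NFIA and control it was 1 with a pseudocount of 0.1 (141 of 12245).

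Signs changed for Angptl4 with forskolin in NFIA-expressing cells (0.10 with scaling). In mutant cells they changed for Lcn2 (0.032 with limma-voom, 0.037 without both replicate 1 libraries) and Agt (0.074 without them). Between mutant and control, the response of Agt was 0.014 with a pseudocount of 0.1, 0.068 with limma-voom and 0.20 without both libraries. From day 0 to day 7 the difference in change from control was, for Agt, -1.71 (pseudocount 0.1) and -3.41 (limma-voom) with NFIA and -1.05 (limma-voom) with the mutant. For Adipoq with the mutant it was -0.77 and -3.03. With libraries left out, the mutant against control after forskolin ranged from -0.15 to 0.62 for Adipoq, -0.061 to 0.73 for Retn and -0.080 to 0.24 for Lcn2. The forskolin response ranged from -0.10 to 0.0053 for Angptl4 in NFIA-expressing cells, and in mutant cells from -0.35 to 0.21 for Agt and -0.25 to 0.24 for Lcn2. Against control it ranged from -0.22 to 0.34 for Agt and -0.056 to 0.077 for Nampt in mutant cells.

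Over all genes, the count called at day 7 was 1007 for NFIA against control (1569 with a pseudocount of 0.1, 1640 with limma-voom), 177 for the mutant against control (417 and 479) and 776 for the mutant against NFIA (1170 and 1265). Scaling factors ranged from -0.194 to 0.105 (log2). The replicate block changed no call of a member: same-numbered libraries deviated together with a mean r of 0.0168 at day 0, -0.0371 at day 7 and -0.00377 after forskolin, so the numbers did not pair them. Depth limits the reading of Lep at all times and of Adipoq, Cfd, Retn and Lcn2 at day 0.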
